A study of Homo sapiens with 4 samples.

Results

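The nuclear genes of the mitochondrial respiratory chain were examined for RNA polymerase II (Pol II) in U2OS cells, a human osteosarcoma line, after knockdown of NKAP. Members were the protein-coding genes of chromosomes 1 to 22 and X whose symbols begin with NDUFA, NDUFB, NDUFC, NDUFS, NDUFV, UQCR, ATP5, COX4, COX5, COX6, COX7 or COX8, together with SDHA, SDHB, SDHC, SDHD and CYC1. The rule gave 97 of the 19970 protein-coding genes in the RefSeq table, spread over 22 chromosomes. By role, 37 encode parts of complex I, 8 complex I assembly factors (the NDUFAF genes), 4 complex II, 10 complex III, 17 complex IV and 19 complex V, and 2 are readthrough genes that join a member to its neighbour. NDUFA4 and its paralogue NDUFA4L2 are listed under the symbols COXFA4 and COXFA4L2 in that table and so were not members.

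The comparison sets Pol II binding without NKAP against Pol II binding with it. NKAP resides in the nucleus, where roles in RNA binding, splicing and repression with HDAC3 have been described. One group was U2OS cells transfected for 48 h with an siRNA against NKAP (genotype label NKAP KD), and the other was U2OS cells transfected for the same time with a control siRNA (label NC). Both were fixed with 1% formaldehyde for 10 min, and Pol II was precipitated with the same antibody in 1 chromatin immunoprecipitation (ChIP-seq) library per condition. With 1 library per condition there was no replicate check, no test between conditions was made, and every difference below is between those 2 libraries.

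The respiratory chain carries electrons from NADH through complex I, or from succinate through complex II, to ubiquinone, then through complex III and cytochrome c to complex IV, which reduces oxygen. Complexes I, III and IV pump protons, and complex V, the ATP synthase, uses the gradient to make ATP. A few core subunits are encoded in mitochondrial DNA, and all the others, described here, are transcribed by Pol II in the nucleus from mostly housekeeping promoters that are known for sites of the factors NRF1, GABPA (an ETS factor) and YY1.

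The knockdown list held 26387 peaks on these chromosomes and the control list 36345. The median summit count was 19 reads per peak with NKAP siRNA and 18 with control siRNA. Depth of the knockdown library was estimated at 0.857 of that of the control, so absence of a peak means only that nothing passed the authors' threshold. NKAP itself carried a peak at an end of the gene in both lists, with 13 reads at the summit in knockdown cells and 12 in control cells. An siRNA acts on the transcript, so this does not check the knockdown. Of 10 genes typical of mesenchymal and osteosarcoma cells, 8 had a gene-end peak in each list, with RUNX2 and COL1A2 in neither. None of 5 hepatocyte, 5 keratinocyte or 5 lymphocyte markers had one. Among 5 neuron markers 3 had one in each list, and among 5 striated muscle markers 1 had one in the knockdown list and 2 in the control list. Within 5000 bp of the gene, 9 of the 10 mesenchymal and osteosarcoma genes had a peak in both lists, RUNX2 among them. So did 4 of the neuron, 2 of the striated muscle and 2 of the lymphocyte markers, and no hepatocyte or keratinocyte marker.

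Nearly all respiratory chain genes carried Pol II in both libraries. A peak lay within 5000 bp of the gene in both lists for 88 of the 97 members (90.7%), while 1 had a peak in knockdown cells alone, 3 in control cells alone and 5 in neither. Over all protein-coding genes these shares were 64.7% in both lists, 1.74% in the knockdown list only and 5.34% in the control list only. The members present in a single list were near the shares among genes at large, and a peak in both lists was more frequent. Of the 91 members with a control peak, 96.7% had one in knockdown cells, against 92.4% over all genes. All 8 assembly factors, all 4 complex II genes and all 19 complex V genes had a peak in both lists, as did 35 of 37 complex I genes, 9 of 10 complex III genes and 11 of 17 complex IV genes.

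At the gene ends (any base of a peak within 1000 bp of either end of the gene), 82 members had a peak in both lists, 1 in knockdown cells alone and 4 in control cells alone, against 55%, 1.46% and 4.85% of all protein-coding genes. Of the 86 members with a control gene-end peak, 95.3% had one in the knockdown list, against 91.9% over all genes. The start of transcription was known for 78 members from the RefSeq promoter table. A peak lay within 1000 bp of the start in both lists for 69 of them, in knockdown cells alone for 1 and in control cells alone for 2, against 56%, 1.2% and 4.38% of all genes with a known start. Of the 71 with a control start peak, 97.2% had one in knockdown cells, against 92.7% over all genes. At the far end of the gene 12 of the 78 had a peak in both lists, 1 in knockdown cells alone and 7 in control cells alone, against 11.2%, 1.08% and 6.36% of all genes. Of the 19 with a control far-end peak, 63.2% had one in knockdown cells, against 63.9% over all genes.

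Member promoters were read from the RefSeq promoter sequences (GRCh38.p14, a fixed window around the start). These matched 78 of the 97 members, among them members without a start peak. Of the member promoters, 6.41% held the NRF1 word, GCGCA followed by its reverse complement TGCGC, on either strand, against 1.77% of the 15812 protein-coding promoters in the table. The ETS word CCGGAAGT, as bound by GABPA, was in 12.8% of member promoters and 6.17% of all. The YY1 word AAGATGGCG was in 11.5% and 2.69%. The SP1 word GGGGCGGGG was in 12.8% and 22.2%, and the TATA box word TATAAA in 8.97% and 9.75%. At least one of the NRF1, ETS and YY1 words was found in 23 member promoters (29.5%), against 10.0% of all. A start peak in both lists was present at 22 of those 23 and at 47 of the 55 member promoters without such a word. A match is a description of the letters and does not show binding.

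The 120 bases before the start are shown for 6 members that carried Pol II in both lists and hold such a word there, and for 2 members, COX7B2 and COX8C, that had no peak in either list and hold none. Capitals mark the NRF1 word (SDHD and ATP5F1C), the ETS word or its reverse complement (SDHD, UQCRH, UQCRQ and COX5B) and the YY1 word (ATP5PF). Marked words do not overlap, and a further ETS word of COX5B crosses the start and is not shown whole. The stretches lie at chr11:112086753-112086872 (SDHD, plus strand), chr1:46303578-46303697 (UQCRH, plus), chr5:132866522-132866641 (UQCRQ, plus), chr2:97645942-97646061 (COX5B, plus), chr10:7788057-7788176 (ATP5F1C, plus), chr21:25735055-25735174 (ATP5PF, minus), chr4:46909246-46909365 (COX7B2, minus) and chr14:93347062-93347181 (COX8C, plus).
SDHD: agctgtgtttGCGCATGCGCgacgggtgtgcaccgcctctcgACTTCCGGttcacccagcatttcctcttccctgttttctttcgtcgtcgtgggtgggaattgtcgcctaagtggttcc
UQCRH: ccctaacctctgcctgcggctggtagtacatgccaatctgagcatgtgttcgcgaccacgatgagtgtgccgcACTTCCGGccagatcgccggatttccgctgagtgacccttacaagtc
UQCRQ: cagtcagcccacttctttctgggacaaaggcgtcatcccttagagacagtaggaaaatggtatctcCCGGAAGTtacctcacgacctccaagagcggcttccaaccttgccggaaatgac
COX5B: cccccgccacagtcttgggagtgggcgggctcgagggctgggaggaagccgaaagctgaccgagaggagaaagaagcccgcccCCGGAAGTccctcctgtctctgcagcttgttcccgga
ATP5F1C: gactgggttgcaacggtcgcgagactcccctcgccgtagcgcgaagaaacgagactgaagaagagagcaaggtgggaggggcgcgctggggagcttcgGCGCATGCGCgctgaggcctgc
ATP5PF: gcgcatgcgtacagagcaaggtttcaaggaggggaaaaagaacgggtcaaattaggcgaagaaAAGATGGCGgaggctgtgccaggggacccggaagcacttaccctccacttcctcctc
COX7B2: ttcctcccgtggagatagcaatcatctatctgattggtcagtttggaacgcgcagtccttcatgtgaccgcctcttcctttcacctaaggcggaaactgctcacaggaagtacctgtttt
COX8C: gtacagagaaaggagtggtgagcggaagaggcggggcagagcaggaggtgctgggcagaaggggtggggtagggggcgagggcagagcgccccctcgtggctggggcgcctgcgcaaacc

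The level of Pol II at respiratory chain genes was near the middle of all genes with a peak. The fold enrichment of a peak is the authors' own value for its summit over the background, and was used to describe and rank peaks within a list. The strongest gene-end peak of the 82 members with one in both lists had a median fold of 11.3 in the knockdown list and 14.03 in the control list. Over the 10984 protein-coding genes that qualified in the same way the medians were 11.4 and 14.4. Ranked among those genes, the members stood at a median percentile of 48.7 in the knockdown list and 48.2 in the control list, and 8 and 5 members lay in the top 10%. By complex, the knockdown and control medians were 10.7 and 13.5 for complex I, 13.0 and 14.8 for its assembly factors, 11.1 and 14.9 for complex II, 16.6 and 15.6 for complex III, 9.38 and 13.1 for complex IV, and 11.8 and 14.01 for complex V. Complex III thus had the highest median in both lists and complex IV the lowest.

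**Figure D1:**
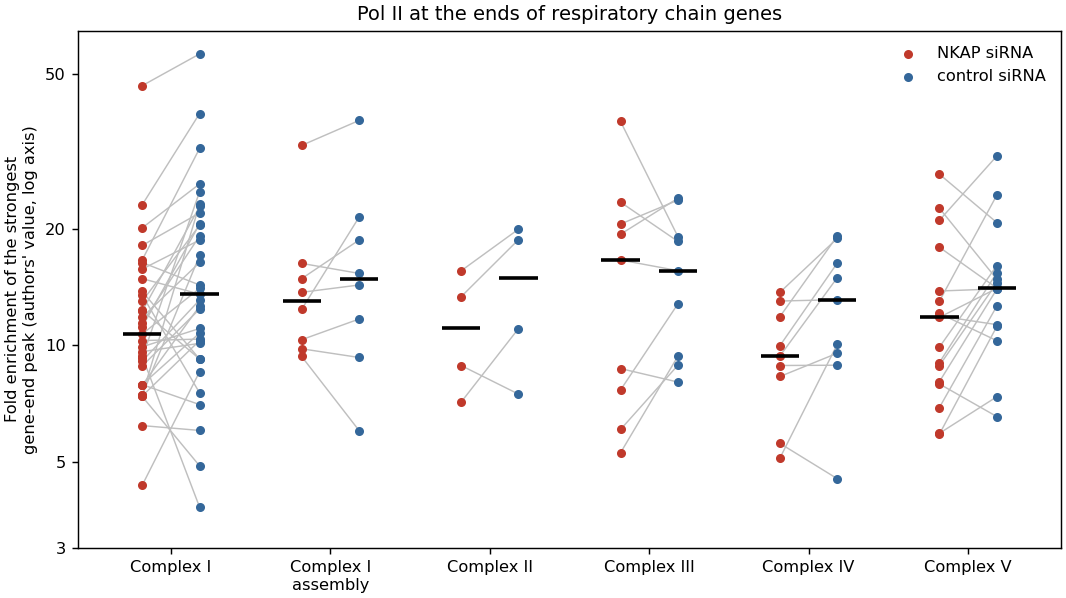
Fold enrichment (log axis) of the strongest gene-end peak of each member with such a peak in both lists, by complex, with NKAP siRNA in red on the left, control siRNA in blue on the right, grey lines joining the values of a gene and black bars for medians. Median folds run from 9.38 (complex IV) to 16.6 (complex III) in NKAP siRNA cells and from 13.1 to 15.6 in control siRNA cells, and the values of the lists overlap in every complex.

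Complex II has 4 subunits, and all had a peak in both libraries. It lay within 1000 bp of the start or, for SDHC, whose start is not in the promoter table, at its lower-coordinate end. SDHA (chromosome 5, 218320 to 268746), the flavoprotein that oxidises succinate, had a start peak with 17 reads at the summit and a fold of 7.12 in knockdown cells, against 32 reads and 11.0 in control cells. That peak also reached CCDC127. A stronger peak lay past the far end of SDHA, 53365 bp from its start in the knockdown list (fold 21.1) and 53305 bp in the control list (fold 19.1). SDHB, the iron-sulfur subunit, had 17 reads and a fold of 8.86 in knockdown cells, against 15 reads and 7.47 in control cells. The SDHB peak lay wholly upstream of the start in both lists. SDHC, a membrane anchor, had 35 reads and a fold of 15.6 in knockdown cells, against 43 reads and 19.9 in control cells. SDHD, the other membrane anchor, whose promoter is shown above, had 36 reads and a fold of 13.3 in knockdown cells, against 55 reads and 18.7 in control cells, on a peak shared with TIMM8B and NKAPD1. The knockdown library had the higher summit count at SDHB and the lower at SDHA, SDHC and SDHD.

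In complex I the highest folds stood on loci with several genes. The strongest gene-end peak of NDUFB10 had a fold of 46.8 in the knockdown list and 56.5 in the control list. Its summit lay 5252 and 5256 bp downstream of the NDUFB10 start, by an end of RPS2, a ribosomal protein gene with the same peak. At the NDUFB10 start itself the knockdown list had a separate peak of fold 11.6 with 24 reads, while the control list had a single peak of 7074 bp over both genes. At its start NDUFA7 had 67 reads and a fold of 21.0 in knockdown cells, against 101 reads and 39.6 in control cells, where the peak was 5326 bp wide and also reached RPS28 and KANK3. By its far end it had 49 reads and a fold of 23.04 in knockdown cells, against 71 reads and 30.4 in control cells. The knockdown peaks at both places also reached an end of another gene, which by the far end was CD320. NDUFA13, also known as the cell death regulator GRIM-19, had 37 reads and a fold of 16.6 in knockdown cells, against 68 reads and 32.2 in control cells, on a peak that also reached TSSK6. NDUFB9 had 64 reads and a fold of 20.1 in knockdown cells, against 77 and 26.1 in control cells, on a peak that also reached TATDN1 in both lists. Among the assembly factors, NDUFAF3 had 75 reads and a fold of 32.8 in knockdown cells, on a peak that also reached DALRD3 and IMPDH2. In control cells its peak at the same place had 99 reads and a fold of 35.4, while its strongest gene-end peak, with a summit 8846 bp from the start, had 96 reads and a fold of 38.0 and also reached IMPDH2 and QRICH1. The knockdown peak there, with its summit at 8910 bp, had 80 reads and a fold of 25.02 and did not reach the gene-end window. NDUFAF5 had 31 reads and 14.8 in knockdown cells, against 39 and 18.7 in control cells, on a peak that also reached ESF1 in both lists. NDUFAF8 had 56 reads in knockdown cells, against 44 in control cells, with folds of 16.3 and 15.3 on a peak shared with TEPSIN, and NDUFAF1 had 39 reads against 63, with folds of 12.4 and 21.4. NDUFA1 (chromosome X, 119871832 to 119876662) lies 44.0 kb from NKAP and shares its peak with RNF113A. It had 14 reads and a fold of 7.39 in knockdown cells, against 21 reads and 10.3 in control cells.

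In complex III, as in the other complexes, members were both higher and lower in knockdown cells by summit reads over the genome average, with 5 of 9 lower, against 64.5% of all genes. UQCRH, the hinge protein that binds cytochrome c1, had 94 reads and a fold of 37.8 in knockdown cells, against 75 reads and 19.1 in control cells, on a peak shared with LRRC41. UQCRQ had 64 reads in both libraries, with folds of 23.4 in knockdown cells and 18.5 in control cells, on a peak shared with GDF9. CYC1 (chromosome 8, 144095076 to 144097525), cytochrome c1 itself, had 96 reads and a fold of 20.5 in knockdown cells, against 117 reads and 23.7 in control cells. The control peak of CYC1 was 6968 bp wide, covered the whole gene and also reached SHARPIN, while the knockdown peak was 2876 bp wide. UQCRFS1, the Rieske iron-sulfur protein, had 48 reads and a fold of 19.3 in knockdown cells, against 65 and 24.0 in control cells. UQCRHL, a short gene near-identical to the UQCRH transcript, had no peak in either list, and reads from the sequence that they share may not be told apart. The UQCRH summits lay upstream of its start, by 259 bp in the knockdown list and 294 bp in the control list.

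In complex IV the widely expressed subunits carried Pol II and the tissue-restricted isoforms mostly did not. COX5A had 37 reads and a fold of 13.7 in knockdown cells, against 48 reads and 18.9 in control cells. COX5B had 29 reads and a fold of 11.8 in knockdown cells, against 40 and 19.1 in control cells. COX4I1, the common form of COX4, had 42 reads and a fold of 9.97 in knockdown cells, against 64 reads and 16.3 in control cells, on a peak shared with EMC8. COX6B1 had 27 reads in knockdown cells and 36 in control cells, with folds of 13.0 and 13.1. COX7A2 had its peak at a second RefSeq start more than 5000 bp inside the gene, where the summit lay 63 bp (knockdown) and 87 bp (control) from that start, with 31 reads and a fold of 11.5 in knockdown cells, against 49 and 21.96 in control cells. COX7A2L, which helps to join complexes III and IV into supercomplexes, likewise had its peak at an inner start, with 27 reads in knockdown cells, against 43 in control cells. Of the isoforms named for restricted tissues, COX4I2 (lung), COX6B2 and COX8C (testis) and COX7B2 had no peak in either list within 5000 bp. The nearest peaks to COX6B2 lay 9550 bp away in the knockdown list and 9351 bp in the control list, and those to COX7B2 lay 553926 and 344795 bp away.

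Complex V members all carried a peak in both lists. The 5 subunits of its catalytic head included ATP5F1E, the epsilon subunit, with 88 reads and a fold of 21.0 in knockdown cells, against 107 and 30.8 in control cells, and ATP5F1B, the catalytic beta subunit, with 41 reads and 13.0 against 64 reads and 24.4. ATP5F1A, the alpha subunit, had 11 reads and a fold of 5.92 in knockdown cells, against 21 and 7.35 in control cells, on a start peak shared with HAUS1. A stronger ATP5F1A peak, about 6 kb into the gene, had 20 reads and a fold of 9.76 in knockdown cells, against 30 and 14.5 in control cells. ATP5MF, of the membrane part, had 59 reads and a fold of 27.6 in knockdown cells, against 61 and 20.7 in control cells, and its readthrough gene ATP5MF-PTCD1 was counted on the same peak. ATP5PF, of the stalk, starts opposite GABPA, the gene of the ETS factor named above, and their shared peak had 45 reads and a fold of 22.6 in knockdown cells, against 58 and 14.8 in control cells. ATP5IF1, the inhibitor that blocks the enzyme from running backwards, had 23 reads and a fold of 11.8 in knockdown cells, against 29 and 14.01 in control cells. ATP5MC2, one of 3 genes for the c ring, had its strong peak at a RefSeq start inside the gene span, more than 5000 bp from its end, with 35 reads and a fold of 8.35 in knockdown cells, against 59 reads and 23.1 in control cells. The peak counted for ATP5MGL lay about 4 kb away inside CYB5R3, 4101 bp (knockdown) and 4270 bp (control) from the member.

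The gene-end peaks found in a single list had 12 to 18 reads at the summit, beside medians over all peaks of 19 in the knockdown list and 18 in the control list. NDUFA3 (chromosome 19, 54102855 to 54107568), a small membrane subunit of complex I, had no knockdown peak within 29980 bp and a control peak of fold 8.87 with 18 reads, 54 bp from its start. Its neighbours TFPT and PRPF31 carried no peak at their own ends in either list. NDUFA8, another complex I subunit, had no knockdown peak within 104581 bp and a control peak of fold 7.47 with 15 reads, 178 bp from its start, which also reached MORN5. COX7A1, the heart and muscle isoform of a complex IV subunit, had none in knockdown cells within 9051 bp and 7 control peaks within 5000 bp, with folds of 4.69 to 7.95, which lay on both sides of the gene. COX6A2 (chromosome 16, 31427731 to 31428360), the other muscle isoform, had a knockdown peak of fold 6.05 with 12 reads, 645 bp downstream of its start and 16 bp past its far end, and no control peak within 14156 bp. ATP5MC2 had a control peak of fold 6.27 with 15 reads by its far end and none there in knockdown cells, besides the inner peak present in both lists. NDUFA5 had no gene-end peak, and its strongest nearby peak had 21 reads in knockdown cells, against 30 in control cells. That peak lay outside the gene, 24811 bp (knockdown) and 24826 bp (control) from the nearest RefSeq start of NDUFA5. A weaker peak inside the gene, by that same RefSeq start, was present in both lists. It had 11 reads and a fold of 5.92 in knockdown cells, against 19 reads and 6.69 in control cells. COXFA4L2, the hypoxia-linked paralogue outside the rule, had a control peak at its end with a fold of 5.02 and none at its ends in knockdown cells. Within 5000 bp of COXFA4L2 the knockdown list had a peak of fold 8.83, with its summit 4753 bp from an end of the gene.

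Read counts at the summits were put on one scale for library depth only. Whole reads were recovered from the deposited fold and p-value of a peak, and were divided by the genome-wide average pileup of the library. For 77 members the strongest gene-end peaks of the lists overlapped and had recovered counts. The rest of the 82, COX7C among them, lacked an overlapping pair or a recovered count. Their summits stood at a median of 28.1 times the genome average in knockdown cells and 33.3 times in control cells. The ratio of knockdown to control had a median of 0.901 and ran from 0.570 to 1.53, and it was below 1 for 56 of the 77. Over 10186 protein-coding genes with such a pair the median ratio was 0.916 and it was below 1 for 64.5%. Of the members 11 had a ratio at least 1.5-fold lower in knockdown cells and 2 at least 1.5-fold higher, against 8.12% and 2.92% of all genes. By complex the median ratio was 0.864 for complex I, where 26 of 31 lay below 1, 0.9898 for the assembly factors, 0.872 for complex II, 0.9745 for complex III, 0.876 for complex IV and 0.846 for complex V.

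The lowest ratio was that of NDUFS8, a complex I subunit that holds iron-sulfur clusters, at 0.570 (95% interval 0.335 to 0.945 from counting error alone), with 24 reads in knockdown cells, against 50 in control cells. NDUFB3 followed at 0.572 (0.271 to 1.15) with 13 reads against 27, ATP5MG at 0.594 (0.280 to 1.198) with 13 against 26, and NDUFB11 at 0.605 (0.366 to 0.979) with 27 against 53. NDUFS5 had 31 reads in knockdown cells, against 59 in control cells, a ratio of 0.624 (0.390 to 0.980). In both lists the NDUFS8 peak also reached ALDH3B1, the NDUFB3 peak HYCC2 and the NDUFB11 peak RBM10. The highest ratios were those of NDUFS4, an accessory subunit of complex I, at 1.53 (0.832 to 2.84) with 27 reads against 21, NDUFAF8 at 1.51 (1.00 to 2.30) and UQCRH at 1.49 (1.09 to 2.04). The interval included 1 for 71 of the 77 members and excluded it for 6. The median ratio of all protein-coding genes, 0.916, lay inside the intervals of all the low members named here and of NDUFS4. It lay below those of NDUFAF8 and UQCRH. Each interval spans much of the range of the members, so the order of neighbouring genes was not resolved at this depth.

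**Figure D2:**
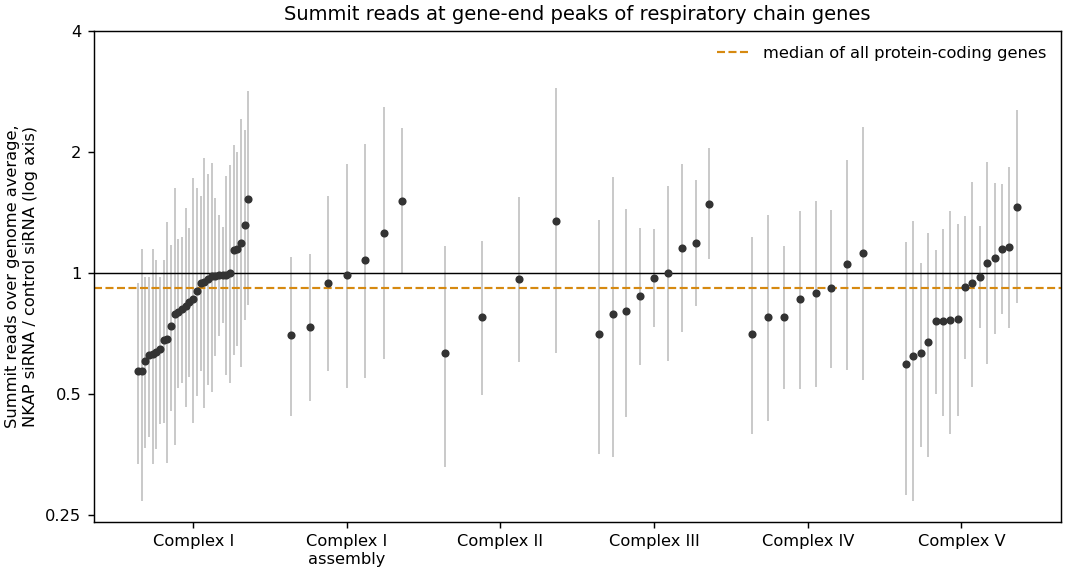
Ratio (log axis) of summit reads over the genome average, NKAP siRNA over control siRNA, for the members with overlapping gene-end peaks in both lists, ordered within each complex, with 95% intervals for counting error. The orange dashed line is the median of all protein-coding genes, 0.916, and the members lie on both sides of it in every complex, from 0.570 to 1.53.

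Peaks over the members covered less sequence in knockdown cells, as they did over genes in general. Covered length, peak edges and the covered share of a span depend on the depth and threshold of each list. The knockdown library had an estimated 0.857 of the control depth, and the part of depth in these differences was not tested. In the gene span with 5000 bp on either side, 84 of the 92 members with any peak had fewer covered bases in the knockdown list (86.1% of all genes) and 8 had more (13.8% of all genes). A loss of at least 2-fold was seen at 22 members, against 28.4% of all genes, and a gain of at least 2-fold at 1, against 3.4%. The median of covered length was 1254 bp in knockdown cells and 1922 bp in control cells for the members, and 1310 and 1962 bp for all genes. The largest losses were at NDUFS8 (4984 bp in knockdown cells and 9797 bp in control cells), the readthrough gene ATP5MF-PTCD1 (5421 and 9535 bp), NDUFA7 (5722 and 9621 bp), ATP5MC2 (1654 and 5216 bp) and UQCRQ (2552 and 5801 bp). At ATP5MC2 the control list had 8 peaks along and beside the gene and the knockdown list 2. NDUFA13 had 9 control peaks and 2 knockdown peaks. The largest gains were small, at COX6B1 (2901 bp in knockdown cells and 2536 bp in control cells), UQCRC1, a core subunit of complex III (2121 and 1781 bp), NDUFB2 (1891 and 1607 bp), COX6A2 (225 and 0 bp) and COX6C (799 and 620 bp).

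**Figure D3:**
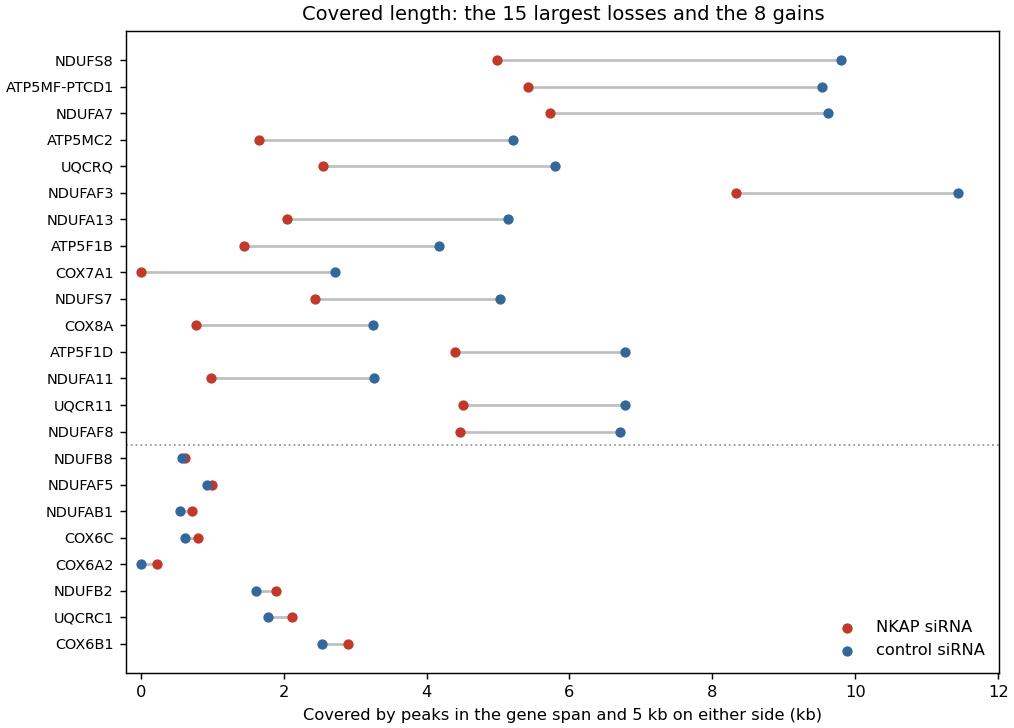
Length in kb covered by peaks in the gene span and 5 kb on either side, for the members with the largest losses (above the dotted line) and for the 8 members with a gain (below it), with NKAP siRNA in red and control siRNA in blue. NDUFS8 has 4984 bp covered with NKAP siRNA and 9797 bp with control siRNA, while the gain at COX6B1 is small (2901 and 2536 bp).

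Most start peaks had their summit close to the start. For the 69 members with a start peak in both lists, the summit lay within 500 bp of the start for 65 in the knockdown list (94.2%) and 63 in the control list (91.3%), against 87.3% and 87.6% of all genes with an overlapping pair of start peaks. The peak ran from a median of -473 bp to 479 bp around the start in knockdown cells, against -742 to 614 bp in control cells (negative values lie upstream). Over the 8723 such genes the downstream edges lay at 585 bp in knockdown cells and 804 bp in control cells, and the upstream edges at -505 and -694 bp, so the members' upstream edge was nearer to the start than that of all genes in knockdown cells and farther in control cells. The downstream edge was nearer to the start in knockdown cells for 57 of the 69 members, or 82.6%, and for 78.9% of all genes. At 1000 bp downstream of the start 7.25% of the members were covered in knockdown cells and 17.4% in control cells, against 21.6% and 37.4% of all genes with a start peak in both lists. At 1000 bp upstream the shares were 14.5% and 29.0% for the members, and 16.4% and 30.1% for all genes. Over all their peaks within 5000 bp, members had median widths of 832.5 bp in knockdown cells and 866 bp in control cells, against 715.5 and 723 bp for peaks near all genes. Members were shorter than genes at large, with a median span of 9936 bp against 24190 bp.

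**Figure D4:**
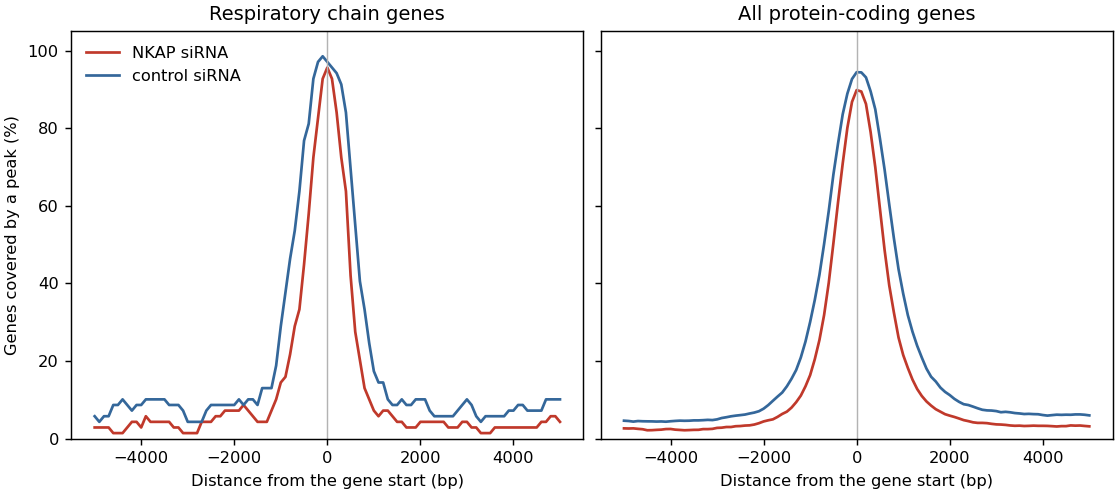
Share of genes covered by a peak at each distance from the gene start, negative upstream, for members (left) and all protein-coding genes (right) with a start peak in both lists, with NKAP siRNA in red and control siRNA in blue. At 1000 bp downstream the members stand at 7.25% in NKAP siRNA cells and 17.4% in control siRNA cells, and all genes at 21.6% and 37.4%.

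Among members with a peak in both lists, short genes had the most of their span covered. The 18 members under 5000 bp had a median of 22.7% of the span covered in knockdown cells and 43.2% in control cells, against 21.9% and 34.7% for all genes of that length with a peak in both lists. The 49 members of 5000 to 20000 bp had 6.20% and 9.27%, and the 21 longer ones 1.13% and 1.38%. COX8A, a small membrane subunit of complex IV, had 21.4% of its 1924 bp covered in knockdown cells and 88.9% in control cells. NDUFB10, NDUFAF3 and CYC1 were covered over their whole span in the control list, and no member was in the knockdown list, that is 0 and 3 of the 88 in knockdown and control cells, against 1.15% and 1.82% of all genes with a peak in both lists. In knockdown cells most of their span was still covered, 90.2% of NDUFB10, 99.4% of NDUFAF3 and 83.1% of CYC1.

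Counted as peaks, 166 knockdown peaks and 217 control peaks lay within 5000 bp of a member. A control peak overlapped 91.6% of the knockdown peaks (95% Wilson interval 86.3 to 94.9), against 85.5% over the peaks near all protein-coding genes. A knockdown peak overlapped 61.8% of the control peaks (55.1 to 68.0), against 55.7%. Many peaks were shared with a neighbour. The strongest peak reached an end of another protein-coding gene for 42 of the 89 members with a knockdown peak and for 46 of the 91 with a control peak, and for 27 and 25 members no peak was free of another gene's end. Pol II counted there may belong to either gene.

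Other genes of the pathway were mostly present in both lists. All 39 assembly and insertion factors outside the member rule, among them SURF1 of complex IV assembly, carried Pol II at an end in both lists, as did all 14 genes of mobile carriers and electron entry and all 13 genes of the citric acid cycle. CYCS, cytochrome c, had 98 reads and a fold of 30.6 in knockdown cells, against 137 reads and 51.8 in control cells. Of 12 regulators 11 had a peak in both lists, among them NRF1 (36 reads in knockdown cells, against 70 in control cells) and TFAM, the mitochondrial transcription and packaging factor (55 against 80). PPARGC1A, the coactivator PGC-1alpha, had a knockdown peak of fold 7.44 with 15 reads and no control peak within 34262 bp. The median ratios of summit reads, knockdown over control, were 0.894 for the assembly and insertion factors, 0.850 for the carriers, 0.906 for the regulators and 0.821 for the citric acid cycle, beside 0.901 for the members. COXFA4, a complex IV subunit outside the rule, had 35 reads in knockdown cells, against 56 in control cells.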

How the data were processed

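MACS2 2.1.0, Bowtie 1.1.2, Trimmomatic 0.33, bcl2fastq 2.17 and build hg38 are named in the submitters' processing notes; settings, the handling of reads with several matches and the background library are not stated there. There is 1 deposited peak list per ChIP library, and the 2 input libraries were not analysed here. The deposited lists give for each peak its position and summit, a score (10 times the −log10 q-value without decimals), the fold enrichment at the summit, and the −log10 p-value and −log10 q-value, all computed by the authors' peak caller. Deposited −log10 q-values began at 3.02 (knockdown) and 3.01 (control).

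Genes, starts and promoters came from RefSeq (GRCh38.p14). Peaks shared at least 1 bp to overlap. Reads at a summit were recovered as whole numbers (within 0.01) from fold = (pileup + 1)/(background + 1) and the Poisson p, for 99.3% of peaks in each list, after a scale of 0.926 found in the knockdown list. The recovery was tested on simulated data. The genome-wide average pileup was 0.890 (knockdown) and 1.14 (control). Intervals cover counting error only. Depth was estimated from these averages and the smallest peak width (225 and 229 bp). No promoter sequence was used for 19 members. The read counts were added to the planned measures after the files were seen. Members, gene lists and measures were chosen with earlier results of these data known. Values were given for the 3 strongest members of each complex in each list, the members in a single list or in none, the complex II genes and CYC1, the tissue isoforms and the 5 largest losses and gains of covered length; the other genes given by name were chosen after their values were seen. Windows, list lengths, thresholds, overlap rules and shared loci were varied. Python 3.11.15, NumPy 2.4.6, pandas 2.3.3, SciPy 1.17.1 and Matplotlib 3.10.9 were used. One member is counted in the totals and not reported by name here.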

Additional observations from a re-analysis of the deposited data

How the results depend on the processing

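No paired analysis was possible because each condition had 1 ChIP library and the labels give no replicate numbers. The count of members with a peak in both lists stayed within 1.5 times its value under other windows, equal list lengths and a −log10 q of at least 5. With the strongest 10000 peaks of each list, members in the knockdown list only, control list only and neither numbered 5, 7 and 23 within 5000 bp of the gene, and gene-end peaks were in both lists for 51, with 6 in knockdown cells alone, 8 in control cells alone and 32 in neither. With no window beyond the span 8 members had no peak, and with 10000 bp 3. Gene-end peaks in the knockdown list only numbered 2 with windows of 2000 bp, 2 with equal list lengths and 3 when the summit had to lie in the window. The share of control peaks overlapped was 75.2% with equal list lengths and 84.3% with the strongest 10000, against 61.8%. Members with more covered bases in knockdown cells numbered 15 within the span alone. The median percentile was 43.0 (knockdown) and 48.2 (control) by −log10 p, and 48.6 and 47.3 with equal list lengths. Leaving out members with shared peaks alone gave 58 of 66 with a peak in both lists. Scaled by the depth from the smallest peak width, 1 member had summit reads at least 1.5-fold higher in knockdown cells. The cause of these changes was not tested. The median of 19 and 18 reads per peak limits the precision of single genes.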
